A study of Mus musculus with 2 samples.

Results

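Mir203 and Mir205 are a pair of miRNA genes known from basal and squamous epithelium, and their levels were measured in the lungs of newborn mice. They were chosen by name, as the rows whose gene identifier carries the GENCODE symbol Mir203 or Mir205, and they are 2 of 1973 miRNA genes with a row. The samples form 1 group of 2 small RNA libraries from B6NCrl mice, a C57BL/6N substrain, at an age of 0 days after birth, with no treatment or altered allele named. Each library was made from 2 lungs of 1 pup, pup 1 for replicate 1 and pup 3 for replicate 2, both of pregnancy 1. The labels give 1 donor record for both. Sex was not collected. Whole lung was used, so cell types were not separated and no cell type of origin was measured.

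A miRNA is cut from a hairpin precursor, and 1 arm of the hairpin is loaded into an Argonaute protein, where bases 2 to 8 of the miRNA, its seed, pair with target mRNAs. In skin, miR-203 is a miRNA of the differentiating layers above the basal layer and represses p63, the transcription factor of basal cells in stratified epithelia. miR-205 is known from the basal and progenitor layers of such epithelia, and together with the miR-200 family it represses Zeb1 and Zeb2, repressors of the epithelial state. In the airway of mice, basal cells line the trachea and the main bronchi, and miR-205 is widely used in human lung tumours as a marker of squamous histology.

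The mature arms are shown first, because reads on both arms of a hairpin were counted together and the levels below cannot be assigned to either arm. Both genes matched the RefSeq table on GRCm38.p6, the same assembly as mm10. Capitals mark the seed. The 4 arms of the members read 5′ to 3′:
mmu-miR-203-3p: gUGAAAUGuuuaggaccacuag
mmu-miR-203-5p: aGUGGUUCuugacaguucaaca
mmu-miR-205-5p: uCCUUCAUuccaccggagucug
mmu-miR-205-3p: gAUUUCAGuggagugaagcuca
All 4 are 22 bases long, within the labelled size range under 30 bases. The G and C content was 40.9% for each arm of Mir203, 54.5% for miR-205-5p and 45.5% for miR-205-3p. The seeds of the members differ from one another, and 0 other mature miRNAs in the table share any of them. Such a seed without another holder is common, since 1211 of 1679 named mature miRNAs (72.1%) have one.

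The hairpins are shown because they place the reads on the genome. Capitals mark the mature arms:
Mir203 hairpin: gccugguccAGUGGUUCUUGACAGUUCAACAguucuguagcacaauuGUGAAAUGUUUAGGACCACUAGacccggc
Mir205 hairpin: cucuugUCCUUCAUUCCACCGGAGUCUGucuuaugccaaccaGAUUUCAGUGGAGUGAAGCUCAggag
Mir203 (ENSMUSG00000065574.1) lies at chr12:112130880-112130955 on the plus strand, is 76 bases long and falls between genes. The nearest annotated genes are the protein-coding Aspg, 3321 bases away, and Kif26a, 15253 bases away, both on the plus strand. Mir205 (ENSMUSG00000065533.1) lies at chr1:193507463-193507530 on the minus strand and is 68 bases long. It falls in exon 2 of the long noncoding RNA gene 4631405K08Rik, which RefSeq calls Mir205hg, the host gene of miR-205. The predicted folding energy was -35.1 kcal/mol for the Mir203 hairpin and -33.8 kcal/mol for that of Mir205.

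In the GENCODE annotation, neither member has another miRNA gene close by. The nearest to Mir203 in it was Mir3073a at 21558 bases, which had 1 read in each library, while RefSeq places a further hairpin on the strand opposite Mir203, described with its reads at the end. The nearest to Mir205 in GENCODE was Mir3962 at 1314471 bases. Of the 308 genes with at least 10 reads in each library, 163 (52.9%) have another GENCODE miRNA gene within 10000 bases. Neither hairpin shares a stretch of 20 bases on its own strand with any other of the 1005 miRNA hairpin genes searched. Gene rows leave out multimapping reads, which made up 34.6% of the reads of replicate 1 and 36.7% of those of replicate 2. Stretches shared with the genome outside miRNA genes were not searched here.

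Both members were well above detection in both pups. Levels are own-strand reads per 1000000 own-strand reads on miRNA genes (CPM), of which the libraries held 4532902 and 5426081 in replicates 1 and 2. Mir203 had 5257 reads in replicate 1 and 7023 in replicate 2. These gave levels of 1159.7 CPM (exact Clopper-Pearson 95% interval 1129 to 1192) and 1294 CPM (1264 to 1325), a mean of 1227 ± 95.1 CPM (SD, n = 2). Mir205 had 2407 and 2393 reads in replicates 1 and 2. Its levels were 531 CPM (510.0 to 552.6) and 441 CPM (423.5 to 459.0), a mean of 486 ± 63.6 CPM (SD, n = 2). For neither gene did the intervals of the pups overlap. These intervals hold no error beyond counting, and PCR copies of 1 molecule are counted as separate reads. In whole tissue, fewer cells of a type and less RNA per cell cannot be told apart.

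Among all 1973 genes, Mir203 ranked 77th in replicate 1 and 73rd in replicate 2, and Mir205 ranked 101st and 111th. These ranks count own-strand reads without multimapping reads, so genes with close copies or with reads on the other strand can rank too low. Mir142b had 0 own-strand reads but 7040 and 9651 opposite-strand reads in replicates 1 and 2, more than the 5257 and 7023 reads of Mir203. The members may therefore stand lower than these ranks. Of the 308 genes with at least 10 reads in each library, 23.7% had a higher mean level than Mir203 and 33.4% a higher one than Mir205. The median level of those 308 genes was 142 CPM in replicate 1 and 141 CPM in replicate 2, so both members stood above it. A count of 3 reads, the limit that 0 reads allow, equals 0.662 and 0.553 CPM in replicates 1 and 2, far under either member.

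**Figure D1:**
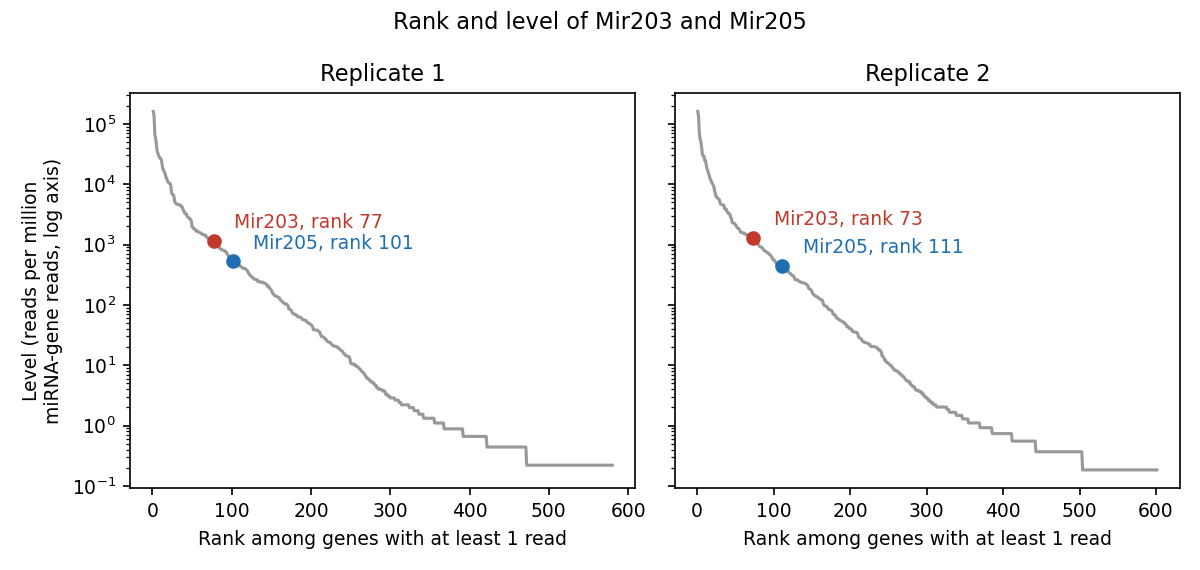
Level in CPM (log axis) against rank for every miRNA gene with at least 1 read, in replicate 1 (left) and replicate 2 (right), with Mir203 in red and Mir205 in blue. Mir203 stood at ranks 77 and 73 and Mir205 at ranks 101 and 111, both on the slope between the most abundant miRNAs and the long tail of genes with few reads. Ranks count own-strand reads and leave out multimapping reads.

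Mir203 exceeded Mir205 in both pups. It was 2.18-fold higher in replicate 1 and 2.93-fold higher in replicate 2, or 1.13 and 1.55 on the log2 scale, with a mean of 1.34 ± 0.30 (SD, n = 2). The mature arms of the genes are equally long, so length does not enter this ratio. Whether the libraries captured each sequence equally well was not measured, so the ratio is one of reads. The order was the same in 2 of 2 pups, and with 2 libraries an exact sign-flip test cannot go below a p of 0.5. The members summed to 1691 and 1735 CPM in replicates 1 and 2, a mean of 1713 ± 31.5 CPM (SD, n = 2). Mir203 made up 68.6% of that sum in replicate 1 and 74.6% in replicate 2.

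The members moved in opposite directions between the pups. Mir203 was lower in replicate 1 than in replicate 2, with a log2 ratio of -0.16 (95% interval -0.21 to -0.11) and a Benjamini-Hochberg adjusted p of 8.37e-09 over 375 genes (exact binomial test of the split of reads, two-sided). Mir205 was higher in replicate 1, with a log2 ratio of 0.27 (0.19 to 0.35) and an adjusted p of 6.81e-10 (same exact test). The ratio of Mir203 to Mir205 itself differed between the libraries, by a log2 odds of -0.43 (two-sided Fisher's exact test, p = 5.26e-18). That test allows for counting error only, and how many other pairs of genes differ as much was not computed. Both members passed the test of the split, as did 42.4% of the genes tested. By direction, 23.2% of genes were called higher in replicate 1, as Mir205 was, and 19.2% lower, as Mir203 was.

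Those p-values compare 2 libraries and allow for counting error only, and deeply sequenced genes passed more often. Among the 146 genes that, like both members, averaged at least 1000 reads, 110 (75.3%) were called, and the SD of the log2 ratio was 0.24. A log2 ratio at least as large in size as that of Mir203 was seen in 51.4% of those 146 genes, and one at least as large as that of Mir205 in 19.9%. The split of Mir203 thus lay within 1 SD of these genes, and that of Mir205 just outside it. With 1 library a pup, a difference between pups and one between library preparations cannot be told apart.

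**Figure D2:**
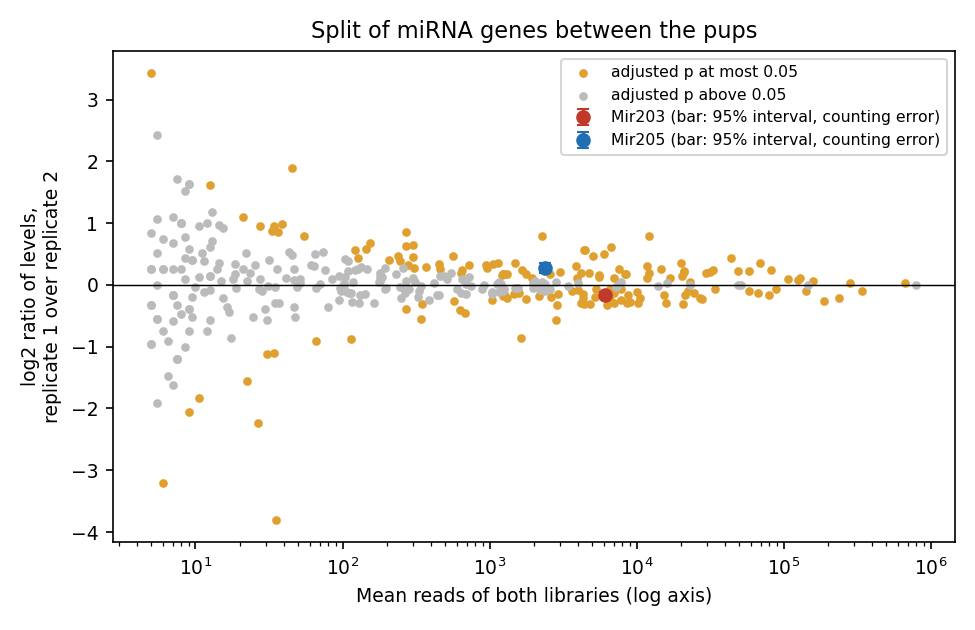
The log2 ratio of levels, replicate 1 over replicate 2, against mean reads (log axis) for 374 of the 375 genes tested, leaving out 1 with no read in 1 library; orange points had an adjusted p of at most 0.05. Mir203 (red, -0.16) and Mir205 (blue, 0.27) carry bars of the 95% interval for counting error and lie on opposite sides of 0, inside the scatter of genes of like depth.

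Other epithelial miRNAs gave a scale for these levels. Across Mir203, Mir205 and 16 genes of other epithelial lists, ordered by mean level, Mir203 was 9th and Mir205 was 13th. Above Mir203 stood Mir141 of the miR-200 family at 1785 and 1583 CPM in replicates 1 and 2. Below it stood Mir200a at 1184 and 1062 CPM, and here the ranges overlapped: Mir200a was the higher in replicate 1 and Mir203 in replicate 2. This was the only overlap among the 17 pairs of neighbours in the order. Mir205 stood between Mir96, a miRNA of the miR-183 cluster known from sensory cells, at 680 and 687 CPM, and Mir31 at 244 and 256 CPM, with no overlap on either side. The mature arms of 17 of these 18 genes that matched RefSeq were 21 to 25 bases long, so the levels were compared with no length correction. Like the ratio of the members, this order is one of reads.

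**Figure D3:**
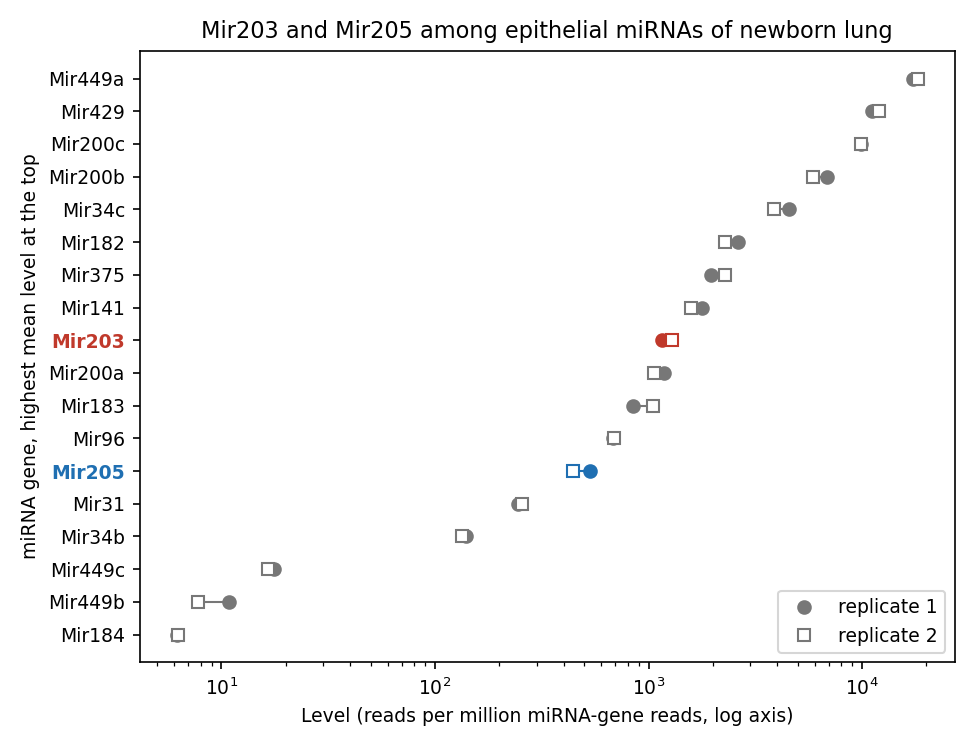
Level in CPM (log axis) of Mir203 (red), Mir205 (blue) and 16 other epithelial miRNA genes (grey), highest mean at the top, with a filled circle for replicate 1 and an open square for replicate 2. Only the ranges of Mir203 and Mir200a overlap among neighbours, and Mir205 lies between Mir96 and Mir31.

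Against the miR-200 family, the general epithelial miRNAs that keep Zeb1 and Zeb2 low, both members were minor. The 5 family genes summed to 30789 and 30324 CPM in replicates 1 and 2. Mir203 lay below that sum by a log2 ratio of -4.73 in replicate 1 and -4.55 in replicate 2, a mean of -4.64 ± 0.13 (SD, n = 2), which is 26.5-fold and 23.4-fold lower. Mir205 lay below it by -5.86 and -6.10, a mean of -5.98 ± 0.17 (SD, n = 2), which is 58.0-fold and 68.8-fold lower. Gene by gene, Mir203 overlapped with Mir200a and was below the other 4 family genes in both libraries, and Mir205 was below all 5.

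The multiciliated list and the miR-183 cluster with Mir375 also each summed to more than either member. The multiciliated list, led by Mir449a of the cells that bear motile cilia, summed to 22081 and 22235 CPM in replicates 1 and 2. Mir203 stood at log2 ratios of -4.25 and -4.10 to it, and Mir205 at -5.38 and -5.66. Within that list, Mir34b at 140 and 134 CPM, Mir449c at 17.6 and 16.6 CPM and Mir449b at 10.8 and 7.74 CPM were below both members. The miR-183 cluster with Mir375, a miRNA of neuroendocrine cells, summed to 6104 and 6287 CPM. Mir203 stood at log2 ratios of -2.40 and -2.28 to that sum, and Mir205 at -3.52 and -3.83. Mir203 was higher than Mir183 and Mir96 in both libraries, and Mir205 was lower than all 4 genes of the list.

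The 2 other miRNAs listed here for keratinocytes and surface epithelia were lower than the members. Mir31, known from keratinocytes of the skin, and Mir184, known from the cornea, summed to 251 and 263 CPM in replicates 1 and 2. Mir203 exceeded that sum by log2 ratios of 2.21 and 2.30, and Mir205 by 1.08 and 0.75. Mir184 had 28 and 34 reads, or 6.18 and 6.27 CPM, so Mir31 made up nearly all of the sum. The members' place above this list and below the other 3 lists was the same in both pups. It describes reads and not numbers of cells.

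**Figure D4:**
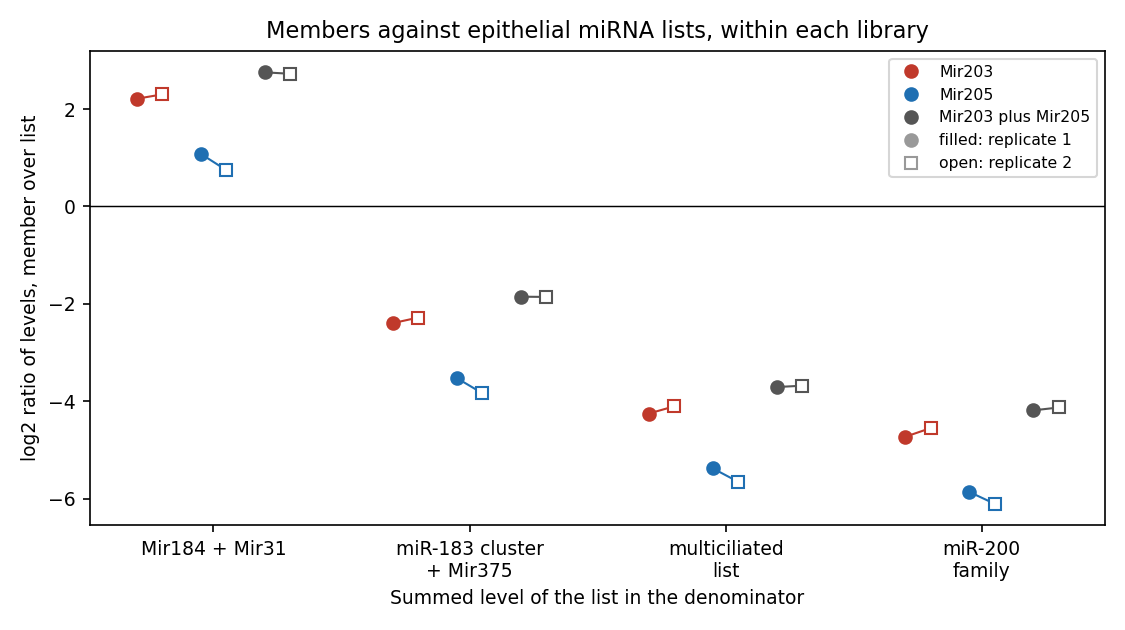
The log2 ratio of Mir203 (red), Mir205 (blue) and their sum (grey) to the summed level of each epithelial list, with a filled circle for replicate 1 and an open square for replicate 2. Every member ratio is above 0 against Mir184 with Mir31 and below 0 against the other 3 lists, and the lines of Mir203 and Mir205 slope in opposite directions while those of the sum are nearly level.

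In the sum of the members, their opposite splits partly cancel. To the miR-200 family the sum stood at log2 ratios of -4.19 and -4.13 in replicates 1 and 2, to the miR-183 cluster with Mir375 at -1.85 and -1.86, and to the multiciliated list at -3.71 and -3.68. To Mir184 with Mir31 it stood at 2.75 and 2.72. These lists were themselves close in both pups, with log2 ratios of replicate 1 to replicate 2 of 0.02 for the miR-200 family, -0.04 for the miR-183 cluster with Mir375, -0.01 for the multiciliated list and -0.07 for Mir184 with Mir31.

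Some single genes within those lists also split between the pups. Of the 16 genes, 9 passed the exact binomial test of the split, 5 higher and 4 lower in replicate 1, beside 42.4% of all genes tested and 75.3% of those that averaged at least 1000 reads. Mir200c, Mir96, Mir31, Mir184, Mir34b, Mir449b and Mir449c did not pass. Of those, Mir184, Mir34b, Mir449b and Mir449c averaged fewer than 1000 reads, so 75.3% is not a like share for all 16 genes. The median log2 ratio of the 16 genes was 0.03, against 0.03 over all 375 genes tested. Like Mir205, Mir200b (0.21), Mir200a (0.16), Mir141 (0.17), Mir182 (0.20) and Mir34c (0.23) were higher in replicate 1. Like Mir203, Mir183 (-0.31), Mir375 (-0.21), Mir429 (-0.10) and Mir449a (-0.07) were lower. Mir182 and Mir183, which belong to 1 cluster, stood on opposite sides, as did Mir200b and Mir429 of another.

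Of 12 tested markers of other cells and tissues, 7 passed the same test of the split, 2 higher and 5 lower in replicate 1. Over all 375 genes tested, 42.4% passed, 23.2% higher and 19.2% lower in replicate 1. Among genes that averaged at least 1000 reads, 75.3% passed. Mir150, Mir155, Mir208a, Mir206 and Mir122 averaged fewer than 1000 reads, so 75.3% is not a like share for all 12 markers. The count is not read as a result about these markers. The endothelial Mir126a had a log2 ratio of replicate 1 to replicate 2 of 0.00, and the smooth muscle list (Mir143 and Mir145a) one of -0.09. The leukocyte list (3 of 4 genes with a row, all with at least 10 reads in each library) stood at 1502 and 1605 CPM, with Mir223 at a log2 ratio of -0.17 and Mir150 at 0.27. That sum leaves out Mir142, which has no row. The row of Mir142b had 0 own-strand reads, but 7040 and 9651 opposite-strand reads in replicates 1 and 2. Those reads enter no level here, so the sum is not the whole leukocyte signal. The erythroid list (2 of 2) stood at 1292 and 1131 CPM, with Mir451a at a log2 ratio of 0.57 and Mir144 at -0.87, both larger in size than those of the members. Of the heart and skeletal muscle list, 3 of 4 genes had at least 10 reads in each library, with sums of 407 and 445 CPM and Mir133b at 0 and 2 reads. The liver miRNA Mir122 stood at 45.9 and 53.1 CPM. The part of these markers in the split of Mir203 and Mir205 was not tested.

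The genes nearest in level to each member were found by the distance of log2(CPM + 1) over the 2 libraries. For Mir203 they were Mir872, at 1283 ± 104 CPM and a distance of 0.091, followed by Mir434, Mir223, Mir101b and Mir542, the last at a distance of 0.18. Mir223 is a myeloid miRNA, and it stood at 1232 and 1381 CPM in replicates 1 and 2. For Mir205 they were Mir148a, at 520.03 ± 44.2 CPM and a distance of 0.16, followed by Mir188, Mir221, Mir3071 and Mir467e, the last at a distance of 0.24. Mir148a, at 551 and 489 CPM, was higher in replicate 1, like Mir205, and passed the exact binomial test of the split. Mir188 and Mir221, with log2 ratios of 0.01 and 0.05, did not pass it. Neither did Mir3071, at 460 and 462 CPM, nor Mir467e, at 457 and 475 CPM, with log2 ratios of -0.004 and -0.05. The genes were picked on these same levels, so a shared direction is partly built in. Over 2 libraries the distance measures only a like level.

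The strand opposite Mir203 carried reads as well, whereas that opposite Mir205 did not. There were 22 such reads in replicate 1 and 17 in replicate 2, which is 0.417% (exact 95% interval 0.261 to 0.630) and 0.241% (0.141 to 0.386) of the reads on either strand of Mir203. Mir205 had 0 of 2407 and 0 of 2393, which by the limit of 3 reads allows a share of up to 0.125% in each library (exact 95% upper bounds 0.153% and 0.154%). Of the 308 genes with at least 10 own-strand reads in each library, 283 had no opposite-strand read in either library. RefSeq places a further hairpin there, Mir203b (listed as Gm51289), whose 60 bases are the reverse complement of bases 8 to 67 of the Mir203 hairpin. Its arms, with the seed in capitals, are shown because they lie against those of Mir203:
mmu-miR-203b-3p: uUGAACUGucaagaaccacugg
mmu-miR-203b-5p: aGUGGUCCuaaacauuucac
The seed of miR-203b-3p differs from that of miR-203-3p by 1 base, A6C, counted from 1 at the 5′ end, with the base of miR-203-3p first. Mir203b has no row of its own in the tables, so the reads were not assigned to it or to either of its arms.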

How the data were processed

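Small RNA of 2 newborn lung libraries was analysed as 1 group. The authors deposited whole-number read counts per miRNA gene, with no normalization, on mm10 with GENCODE M4 per the deposited file descriptions. The aligner and the counting program were not given in the sources used here. The tables have an either-strand column and 2 single-strand columns. The larger single-strand column, read as the gene's own strand, held 98.2% and 98.04% of either-strand reads in replicates 1 and 2. Rows naming no gene (45.2% and 47.8% of reads) stayed out of totals. Symbols and positions came from GENCODE M21 on GRCm38 (1894 of 1973 identifiers matched), sequences from RefSeq.

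CPM were computed here. For each gene with 10 or more reads over both libraries, the split of reads was compared with the library totals by an exact binomial test. It was two-sided (SciPy 1.17.1) and adjusted by Benjamini-Hochberg at 0.05. It was first run on simulated counts with set folds and counting error only. Those counts held no further spread between pups, so that run cannot show how the test behaves under such spread. With 1 library a pup, no quasi-likelihood fit was made; edgeR 4.0.16 and DESeq2 1.42.0 gave alternative library sizes. Hairpins were folded with ViennaRNA 2.7.2. Named were the members, the genes of the marker lists, the 5 genes nearest in level to each member, miRNA genes within 100 kb, and sharers of a seed. The members and the 10 lists were chosen with earlier results of these data known. The labels name separate pups, and p-values compare 2 libraries only.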

Additional observations from a re-analysis of the deposited data

Results flagged for a closer look

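Reads on the strand opposite Mir203, which enter no level above, came to 22 in replicate 1 and 17 in replicate 2. Each is over the 3 reads taken as the limit that a count of 0 allows, and this is what drew attention to them. Relative to own-strand reads on all miRNA genes they correspond to 4.85 and 3.13 CPM, against 1159.7 and 1294 CPM for Mir203 itself. The labels name no control samples to set them against.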

How the results depend on the processing

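Apart from leaving out a replicate, 25 of 29 alternative values over 9 results kept their direction, their side of the threshold or their place within 1 SD. Per 1000000 of all reads in the table, Mir203 stood at 655 CPM and Mir205 at 261 CPM, and without Mir126a, the most abundant gene, in the total they stood at 1462 and 579 CPM. Both changes follow from the denominator, and the ratio of Mir203 to Mir205 does not depend on it. Leaving out a replicate left Mir203 at 1159.7 to 1294 CPM, Mir205 at 441 to 531 CPM and their log2 ratio at 1.13 to 1.55, which with 2 libraries only restates each library's value. Under edgeR's TMM, DESeq2's size factors, other filters on low counts and the either-strand column, the log2 ratio of replicate 1 to replicate 2 was -0.19 to -0.15 for Mir203 and 0.24 to 0.27 for Mir205. The number of genes called was 147 to 167, but the number tested changed with the filter, so the share called was 22.0% with no filter and 49.4% with at least 10 reads in each library, against 42.4%. No paired analysis was possible because the libraries form a single group. Depth did not limit detection of either member. Over 2 libraries, the spread between pups rests on 1 difference per gene.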

Other observations

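Opposite-strand reads above 3 in both libraries were found for 5 of the 308 genes with at least 10 own-strand reads in each. They were Mir203, Mir3074-1, Mir126a, Mir708 and Mir130a, named after their values were seen. The share of opposite-strand reads was 27.3% and 32.9% for Mir3074-1 in replicates 1 and 2, and 0.271% and 0.508% for Mir708, against 0.417% and 0.241% for Mir203. Mir126a, with 14 and 19 such reads, and Mir130a, with 5 in each library, had shares of at most 0.0049%. The filter on own-strand reads leaves out rows with far more opposite-strand reads. With 0 own-strand reads, Mir497b had 13790 and 17733 opposite-strand reads in replicates 1 and 2, and Mir142b had 7040 and 9651. All gene rows together held 83568 and 108456 such reads.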
